A study of Mus musculus with 8 samples.

Results

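The 26S proteasome is the enzyme complex that unfolds and cuts proteins tagged with ubiquitin. Its 20S core is a barrel of α rings, encoded by the Psma genes, around β rings, encoded by the Psmb genes, and 3 β subunits (Psmb5, Psmb6 and Psmb7) do the cutting. The 19S cap holds a ring of ATPases (Psmc genes) that unfold the substrate, and non-ATPase subunits (most Psmd genes) that bind ubiquitin and remove it. In brown adipose tissue (BAT), the fat depot that burns fuel for heat, cells are known to raise proteasome gene transcription through Nfe2l1 when thermogenesis is switched on, and in immune responses interferons are known to replace the cutting subunits by inducible ones. The genes described here are the 34 that encode the constitutive particle: Psma1 to Psma7, Psmb1 to Psmb7, Psmc1 to Psmc6 and Psmd1 to Psmd14. The rule that picks them uses gene names only, and Psmd5, Psmd9 and Psmd10 are kept apart because their products help to assemble the cap and are not part of the finished particle.

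BAT RNA of 8 C57BL/6J mice aged 12 weeks, males per the study's methods, was taken 18 h after an intravenous injection of 100 µL. The 4 Co mice received saline, and the 4 Pg mice received sonicated Porphyromonas gingivalis, a bacterium of periodontal disease, at a dose of 10 to the power of 8 CFU per the study's methods (the labels print 108, without the exponent). Each mouse had a Cy3-labelled single-colour Agilent array, and the comparison asks what a single exposure to the bacterial material changes in the tissue. No mouse carried an introduced allele, and whole tissue was used, so fewer cells of a type and less RNA per cell cannot be told apart. The array holds 65 probes (60-base oligonucleotides) for the 34 genes, of 56605 probes for 37074 array names in all, and 62 of the 65 passed the signal filter (flagged well above background by the scanner software on 4 or more arrays) and were tested. All 34 genes were represented, 20 by several probes and 14 by 1 probe. For counts over genes each gene is given by its probe with the highest mean signal, and those 34 probes were well above background on all 8 arrays. Values are log2 normalized intensities, a difference of 1 being a doubling, and they are compared for the same probe only, because brightness also depends on the probe.

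On the whole array, probes well above background numbered 34760 to 35831 in Co mice but 31132 to 34063 in Pg mice, ranges apart from each other (two-sided exact permutation p = 0.0286, which no split of 4 against 4 can undercut). All arrays were on a single slide with the Co arrays in the first row and the Pg arrays in the second, so row and group cannot be told apart. Of 15 brown adipocyte markers 13 were well above background on all 8 arrays, but Ucp1, which defines the brown adipocyte, and Elovl3 were not on any array. The study measured Ucp1 in BAT by quantitative PCR and reported it as lower in Pg mice. The dim array reading therefore does not show that the transcript was absent. All 15 skeletal muscle markers were well above background on all 8, with summed intensities of 3285060 to 3500730 in Co mice and 3247170 to 3507440 in Pg mice. These sums are led by some of the brightest probes of the array, which quantile normalization holds at nearly equal values, so they do not measure muscle content. Of the 15, 12 were lower in Pg mice (52.8% of all genes were), but some barely, such as Ttn (-0.00270), Mylpf (-0.00383) and Tnni2 (-0.00822). Single bright probes are held too: Tnni2 and Tnnt3 had an SD of 0 in Pg mice. Past the test was 1 of the 15, the muscle calcium pump gene Atp2a1 (log2 fold change -0.44, adjusted p = 0.0411 by limma), where 4.18% of all genes were called lower. The muscle myosin gene Myh4 ran from 13.38 to 16.97 in Co mice and from 11.38 to 17.07 in Pg mice. None of the tested macrophage (8), neutrophil (7) or red blood cell (8) markers passed the test. By count, 6 macrophage and 6 neutrophil markers were higher in Pg mice and all 8 red blood cell markers lower (52.8% of all genes were lower). The median log2 fold changes of these markers were 0.36, 0.22 and -0.61. Their summed intensities ran from 34104.6 to 39914.5 in Co mice and from 33047.7 to 52111.6 in Pg mice for macrophages, from 40739.2 to 50904.9 and from 48508.7 to 55605.3 for neutrophils, and from 485929 to 797130 and from 225323 to 812911 for red blood cells. The macrophage sum is led by Itgam (log2 fold change -0.05). The neutrophil sum is mostly that of Csf3r, whereas the neutrophil gene S100a8 measured 4.56 to 5.33 in Co mice and 8.59, 8.32, 5.18 and 6.76 in Pg mice (log2 fold change 2.16, adjusted p = 0.132 by limma), with S100a9 at 2.04 (adjusted p = 0.195). The other tested neutrophil markers changed far less: Csf3r stood at 0.24, Mpo at 0.22, Ly6g at 0.09, Camp at 0.01 and Elane at -0.03. The part of these cells in the results below was not tested.

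Transcripts of the constitutive proteasome differed little between Co and Pg mice. None of the 34 genes was upregulated or downregulated at a false discovery rate (q) under 0.1 by limma, where 2.05% of the 22320 genes tested were called higher in Pg mice and 4.18% lower. None met the study's definition of a differentially expressed gene, which adds a change of over 1.5-fold (0.323% of all genes higher and 0.856% lower). At an unadjusted p under 0.05, 5 of the 34 were higher and 0 lower (8% and 12.3% of all genes). Co and Pg values stood fully apart for 4 genes, all higher in Pg mice (Psma7, Psmb6, Psmc1 and Psmd4), against 5.76% of all genes higher and 8.56% lower without overlap. The count was 0 after scaling to the 75th percentile and 1 without normalization between arrays, and leaving out a mouse raised it to 8 without Co2 or without Pg3 and to 7 without Co3. The log2 fold change was above 0 for 25 of the 34 and below 0 for 9, with a median of 0.06 (3.91% higher), while 52.8% of all genes were below 0 and their median was -0.01. All genes include dimmer ones than the 34. Among the 19641 genes above background on all 8 arrays, as the 34 were, 51.4% were below 0 and the median was -0.00584. The other tested probes of the 34 genes, 14 higher and 14 lower, had a median of 0.000574. The median stayed above 0 in the other settings tried, but its distance from 0 varied. After scaling to the 75th percentile 15 of the 34 were below 0 and the median was 0.01. Without normalization between arrays 8 were below 0 and the median was 0.06, but that of all genes was then 0.05. These settings differ only by a factor per array, so the distance between the median of the 34 and that of all genes is the same in both by construction (0.0158). It was 0.0691 with quantile normalization of the processed signal, 0.0366 with normexp, 0.0494 with the median spot signal and 0.0379 with the deposited log2 values. With the deposited log2 values, which lie nearer to the mean over the probes of a transcript than to the probe the table names, 16 were below 0 (median 0.00996).

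With the brightest probe of each gene, the 95% interval of the log2 fold change lay within a 1.5-fold change in either direction for all 34 genes, and within a 1.3-fold change for 32 of them. The other probes gave wider bounds: over all 62 tested probes the intervals also lay within a 1.5-fold change, but reached from -0.54 (a probe of Psmd3) to 0.54 (a probe of Psmd7). Over the 34 brightest probes the lowest lower bound was that of Psmd11 at -0.27 and the highest upper bound that of Psmd5 at 0.45, a 1.37-fold rise. The interval reached 0.11 to either side of the estimate for Psmc5, the narrowest, and 0.25 for Psmd5, the widest. The standard error had a median of 0.0637 over the 34 genes and of 0.1002 over all genes tested. An interval that included 0 was found for 29 genes, and the remaining 5 (Psma6, Psma7, Psmc1, Psmc3 and Psmd4) lay above it. Among all genes 62% had a fold change between the lowest and the highest of the 34, and 33 of the 34 fell between the 10th and 90th percentiles of all genes (-0.31 and 0.26).

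**Figure D1:**
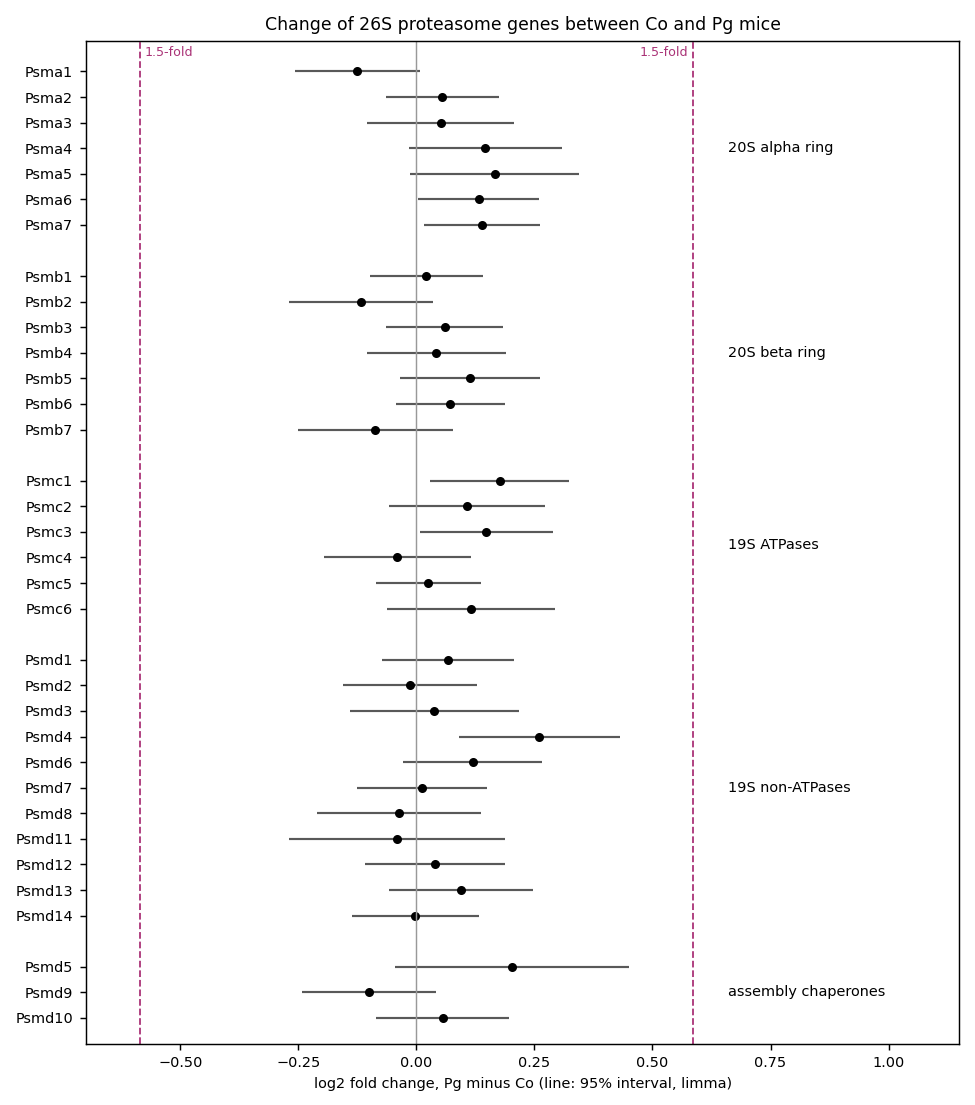
Log2 fold change of each gene (point) with its 95% interval (line) on the horizontal axis, Pg minus Co mice, 4 arrays a group, genes in rows by place in the particle. All 34 intervals lie inside the dashed lines at a 1.5-fold change, and 29 cross 0.

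**Figure D2:**
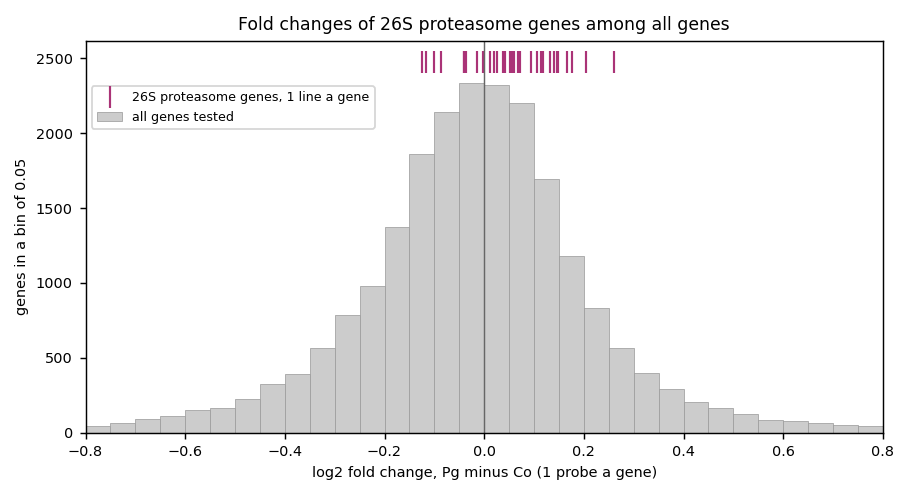
Histogram of the log2 fold changes of the 22320 genes tested in bins of 0.05, with the 34 proteasome genes as lines above it (180 genes lie below and 242 above the plotted range). The lines stretch from -0.12 to 0.26, over the middle of the histogram.

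In the α ring, which forms the outer gates of the core, 6 of 7 genes were higher in Pg mice, none past the test, and the median log2 fold change was 0.13 (9.6% higher). Psma7 measured 14.23, 14.17, 14.11 and 14.11 in the 4 Co mice and 14.31, 14.33, 14.26 and 14.27 in the 4 Pg mice. Every Pg value was above every Co value, and the log2 fold change was 0.14 (SE 0.0532, adjusted p = 0.175 by limma). Psma6 measured 14.69, 14.62, 14.62 and 14.62 in Co mice and 14.83, 14.81, 14.68 and 14.75 in Pg mice, so that only the first Co mouse reached into the Pg range (log2 fold change 0.13, adjusted p = 0.209). Psma1 went the other way, with 14.31, 14.35, 14.28 and 14.22 in Co mice and 14.11, 14.21, 14.22 and 14.12 in Pg mice, and the groups met only at 14.22 (log2 fold change -0.12, 95% interval -0.26 to 0.01, adjusted p = 0.244). The other members were Psma5 at 0.17, Psma4 at 0.15, Psma2 at 0.06 and Psma3 at 0.05, with adjusted p-values between 0.250 and 0.681.

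The β ring carries the active sites, and its median log2 fold change was 0.04, with 5 genes higher, 2 lower and none past the test. Psmb5, the chymotrypsin-like subunit and the main target of proteasome inhibitor drugs, measured 14.18, 14.14, 14.06 and 13.96 in Co mice and 14.19, 14.24, 14.23 and 14.14 in Pg mice. Its groups overlapped between 14.14 and 14.18 (log2 fold change 0.11, SE 0.0642, adjusted p = 0.333). Psmb6, the caspase-like subunit, measured 15.44, 15.43, 15.39 and 15.40 in Co mice and 15.45, 15.54, 15.45 and 15.50 in Pg mice. The groups stood apart by a narrow margin (log2 fold change 0.07, adjusted p = 0.426). Psmb7, the trypsin-like subunit, measured 14.24, 14.33, 14.34 and 14.35 in Co mice and 14.08, 14.19, 14.32 and 14.33 in Pg mice. Here 2 of the Pg mice were below all Co mice and the other 2 were among them (log2 fold change -0.09, 95% interval -0.25 to 0.08). The lowest unadjusted p of the ring belonged to Psmb2, a structural subunit, at 10.82, 10.90, 10.88 and 10.69 in Co mice against 10.75, 10.62, 10.73 and 10.73 in Pg mice, with overlap through the fourth Co mouse (log2 fold change -0.12, adjusted p = 0.328). Psmb3 (0.06), Psmb4 (0.04) and Psmb1 (0.02), which are also structural, had adjusted p-values of 0.545 to 0.840.

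Among the 6 ATPases of the cap, which thread the substrate into the core, 5 were higher and 1 lower in Pg mice, none past the test, with a median log2 fold change of 0.11. Psmc1 measured 15.34, 15.43, 15.40 and 15.23 in Co mice and 15.50, 15.61, 15.50 and 15.50 in Pg mice. All Pg values were above all Co values (log2 fold change 0.18, SE 0.0637, adjusted p = 0.158), and a second probe for Psmc1, which shares most of its bases with the first and is no independent reading, gave 0.18 (adjusted p = 0.135). Psmc3 measured 15.79, 15.88, 15.94 and 15.77 in Co mice and 16.01, 15.99, 15.92 and 16.04 in Pg mice, with the third Co mouse above the third Pg mouse (log2 fold change 0.15, adjusted p = 0.198). Psmc2 measured 14.43, 14.32, 14.26 and 14.21 in Co mice and 14.53, 14.44, 14.32 and 14.36 in Pg mice, an overlap over much of both ranges (log2 fold change 0.11, adjusted p = 0.411). Psmc6 stood at 0.12 and Psmc5 at 0.03. Psmc4 stood at -0.04, with 13.46 to 13.47 in Co mice, 13.26 in the first Pg mouse and 13.44 to 13.52 in the other 3.

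The 11 non-ATPase subunits of the cap had a median log2 fold change of 0.04, 7 of them higher and 4 lower, and none passed the test. Psmd4, the ubiquitin receptor that captures tagged proteins, came nearest to the threshold. It measured 15.27, 15.11, 15.09 and 15.06 in Co mice and 15.43, 15.50, 15.28 and 15.37 in Pg mice. The lowest Pg value was only just above the highest Co value, and the log2 fold change was 0.26 (95% interval 0.09 to 0.43, SE 0.0737, adjusted p = 0.1004). It was under the threshold in 5 of the other settings tried, among them an adjusted p of 0.0666 after normexp background correction and of 0.0942 without the third Pg mouse, and over it in the rest, with 0.169 after 75th percentile scaling and, as the highest, 0.364 for the mean over its probes. A second probe of Psmd4, further inside the transcript, gave 0.04 (adjusted p = 0.743).

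Psmd6, a structural subunit of the lid, measured 14.27, 14.29, 14.25 and 14.12 in Co mice and 14.36, 14.43, 14.27 and 14.33 in Pg mice, the groups overlapping through the third Pg mouse (log2 fold change 0.12, adjusted p = 0.306). Psmd13, a structural lid subunit too, measured 14.31, 14.29, 14.17 and 14.16 in Co mice and 14.25, 14.41, 14.28 and 14.38 in Pg mice, with Pg1 and Pg3 among the Co mice (log2 fold change 0.09, adjusted p = 0.428). Psmd14 is the deubiquitinase that strips ubiquitin from the substrate, and its log2 fold change was -0.00176 with a 95% interval of -0.14 to 0.13. The large scaffold subunits Psmd1 and Psmd2 stood at 0.07 and -0.01. The other 5 lay between -0.04 (Psmd11) and 0.04 (Psmd12), with adjusted p-values from 0.751 to 0.917.

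Of the assembly chaperones, Psmd5 measured 10.91, 11.11, 10.91 and 10.91 in Co mice and 11.10, 11.45, 11.001 and 11.09 in Pg mice. The second mouse was the highest of its group on both sides, and the log2 fold change was 0.20 (SE 0.107, adjusted p = 0.301), or 0.11 without the second Pg mouse. Psmd9 measured 9.64, 9.70, 9.66 and 9.60 in Co mice and 9.68, 9.54, 9.51 and 9.49 in Pg mice, where 3 of the 4 Pg mice were below all Co mice (log2 fold change -0.10, adjusted p = 0.370). Psmd10 measured 10.79, 10.65, 10.76 and 10.75 in Co mice and 10.76, 10.81, 10.89 and 10.72 in Pg mice, with no separation (log2 fold change 0.06, adjusted p = 0.621).

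**Figure D3:**
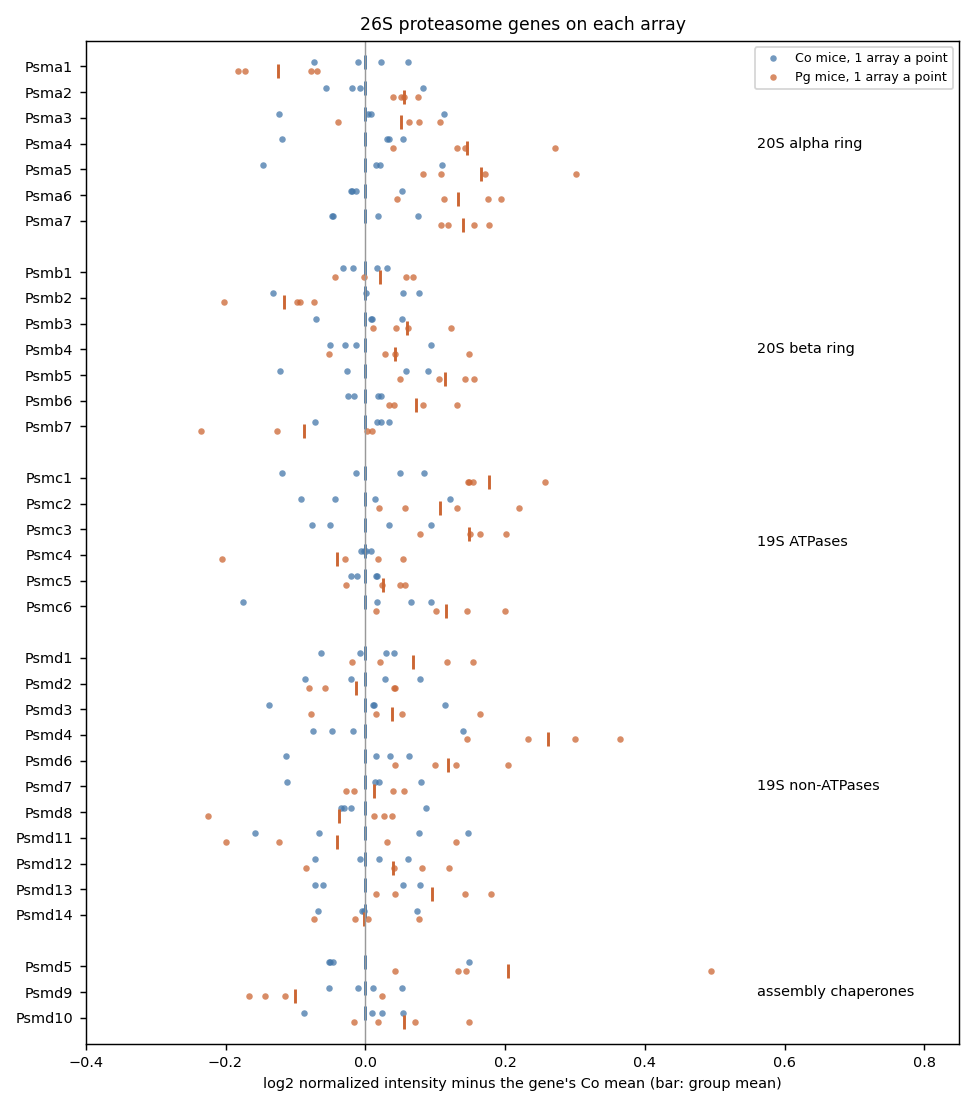
Each point is an array, as log2 normalized intensity minus the gene's Co mean on the horizontal axis, genes in rows by place in the particle, bars the group means (n = 4 a group). Orange and blue points interleave in most rows, and only Psma7, Psmb6, Psmc1 and Psmd4 have all Pg points right of all Co points.

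The arrays of a group did not move as a block. Relative to each gene's own mean over the 8 arrays, the median deviation of the 34 genes was -0.00333, -0.00136, -0.0150 and -0.0766 on Co1 to Co4 and 0.0395, 0.0598, -0.00267 and 0.0356 on Pg1 to Pg4. Co4 was the lowest of the 8 arrays for 13 of the 34 genes, and Pg2 was the highest for 13. Without Co4, the median log2 fold change of the genes was 0.05 and 10 of them were below 0. The deviation of Co4 differed by group of subunits: its median was -0.12 over the non-ATPases and -0.03 over the β ring.

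Probes of the same gene often differed in direction. Of the 19 proteasome genes with several tested probes, 10 had probes on both sides of 0 (52.6%), the same share as in the 7489 genes of this kind on the array (52.6%). Beside Psma4, Psmc3, Psmd1 and Psmd3, described below, these were Psma6 (-0.03 at position 357), Psmb2 (0.24 at 1580), Psmc6 (-0.08 at 1926), Psmd2 (0.02 at 1667), Psmd6 (-0.06 at 890) and Psmd13 (-0.20 at 338), each against the sign of the brightest probe. The 28 tested probes that do not represent their gene in the counts split into 14 higher and 14 lower. Of these, 3 were called higher and 2 lower at q under 0.1, where the shares over all 33819 probes were 1.82% higher and 6% lower. None of these 5 calls reached a 1.5-fold change, as 0.313% of all probes did on the higher and 1.3% on the lower side. They belong to Psmb4, Psmb6, Psmd1, Psma4 and Psmd3, all structural or catalytic parts of the finished particle. Each of the 5 is given below by its position in the transcript, counted in bases from the 5′ end.

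The Psmb6 probe at 689 measured 13.87, 13.83, 13.73 and 13.70 in Co mice and 14.02, 14.14, 14.01 and 13.98 in Pg mice, all Pg values higher, and was upregulated (log2 fold change 0.26, adjusted p = 0.0808), whereas the brighter probe at 768 gave 0.07. The Psmb4 probe at 154 measured 11.84, 11.75, 11.69 and 11.67 in Co mice against 11.98, 12.13, 11.97 and 11.89 in Pg mice (0.26, adjusted p = 0.0975), whereas the brighter one at 809 gave 0.04. In Psmd1 the probe at 2628 measured 13.67, 13.55, 13.48 and 13.43 in Co mice against 13.86, 13.86, 13.75 and 13.77 in Pg mice (0.28, adjusted p = 0.0761). The Psmd1 probe at 2303, upstream of it, stood at -0.15 (adjusted p = 0.217), and the brightest, at 3162, gave 0.07. The Psma4 probe at 639 was downregulated, from 13.70, 13.74, 13.75 and 13.71 in Co mice to 13.55, 13.56, 13.55 and 13.58 in Pg mice (-0.16, adjusted p = 0.0991), whereas the brightest probe, at 986, gave 0.15. The Psmd3 probe at 904 was downregulated from 10.50, 10.57, 10.58 and 10.46 to 10.07, 10.37, 10.23 and 10.05 (-0.34, adjusted p = 0.0751), whereas the brighter probe at 2037 gave 0.04. All 5 separated the groups (4.83% of all probes did so with higher and 11% with lower Pg values), and of these genes only Psmb4 and Psmb6 had all tested probes on the same side of 0. On leaving out single mice, the calls of the Psma4, Psmb4 and Psmb6 probes were lost whichever mouse was left out (adjusted p up to 0.197), that of Psmd1 held only without Co1 or Pg3, and that of Psmd3 only without Pg2 or Pg3. Under 75th percentile scaling the Psmd3 probe alone stayed under the threshold. All 5 calls were lost without the signal filter (adjusted p from 0.103 to 0.134) and without normalization between arrays (from 0.212 to 0.392), and that of Psmb4 also with normexp (0.155) and with the median spot signal (0.165).

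**Figure D4:**
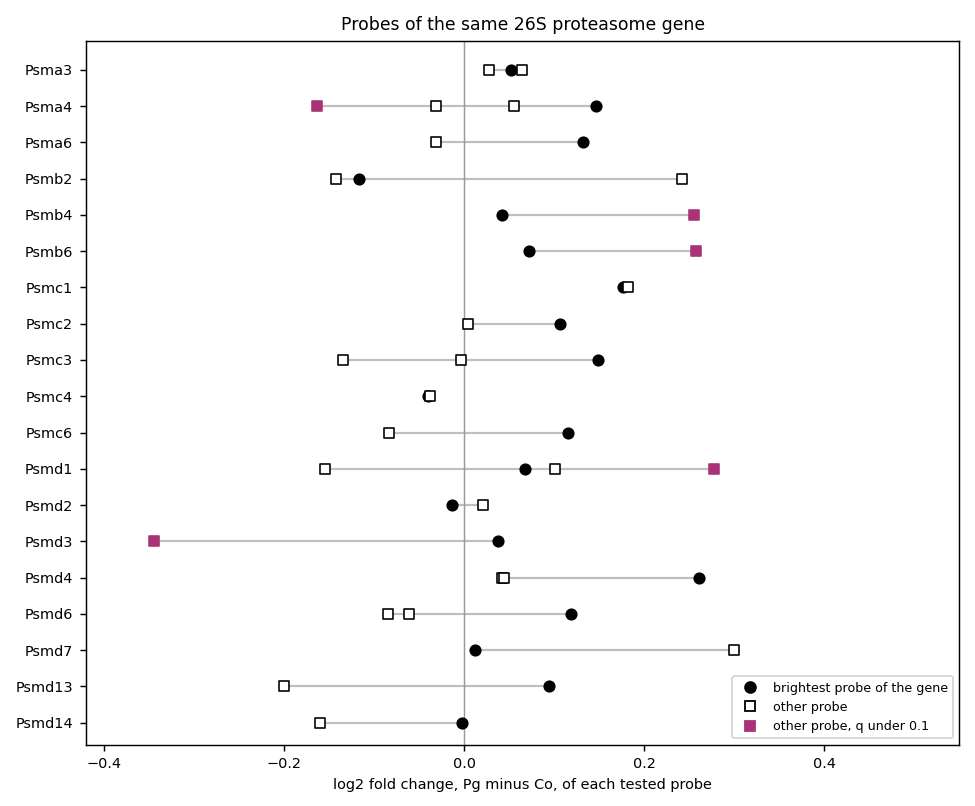
Log2 fold change (Pg minus Co) of every tested probe for the 19 proteasome genes with several tested probes, a row a gene, circles for the brightest probe, squares for the others and filled squares for q under 0.1. In 10 rows the symbols lie on both sides of 0.

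The sequences of these probes show what each reading rests on, and the 3 probes of Psmc3 cover its transcript from the middle to the end. In this order the log2 fold change was -0.13 (position 863, adjusted p = 0.255), -0.00293 (1307) and 0.15 (1565). The last, like the Psmd4 probe at 1270, is given only as the 30 bases that hold the polyadenylation signal AATAAA, in capitals, which marks the 3′ end of a transcript. Coordinates of whole probes are from the array annotation in build mm9, on the + strand for Psmc3, Psmd1, Psmd3, Psma4 and Psmb6 and on the - strand for Psmd4 and Psmb4.
Psmc3 at 863, chr2:90896846-90896905: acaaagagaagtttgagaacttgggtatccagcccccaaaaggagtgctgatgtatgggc
Psmc3 at 1307, chr2:90898252-90898311: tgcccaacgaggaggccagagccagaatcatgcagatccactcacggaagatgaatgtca
Psmc3 at 1565, chr2:90899526-90899585: gctaaagttgatAATAAAaggtgttttctg
Psmd4 at 693, chr3:94837931-94838529: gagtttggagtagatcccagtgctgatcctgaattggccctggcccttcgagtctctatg
Psmd4 at 1270, chr3:94836627-94836686: cctttatgatggAATAAAgcttggcaagtt
Psmd1 at 2303, chr1:88023048-88023107: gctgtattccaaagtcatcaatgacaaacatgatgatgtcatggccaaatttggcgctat
Psmd1 at 2628, chr1:88027281-88029323: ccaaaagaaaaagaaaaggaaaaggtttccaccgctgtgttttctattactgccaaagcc
Psmd3 at 904, chr11:98551831-98551890: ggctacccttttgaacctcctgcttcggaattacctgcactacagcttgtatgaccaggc
Psma4 at 639, chr9:54804681-54804740: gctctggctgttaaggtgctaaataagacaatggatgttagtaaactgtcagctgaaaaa
Psmb4 at 154, chr3:94690546-94690726: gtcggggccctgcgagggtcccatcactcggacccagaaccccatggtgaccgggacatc
Psmb6 at 689, chr11:70341014-70341073: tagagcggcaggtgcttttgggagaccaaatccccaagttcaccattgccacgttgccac
The Psmd4 probe at 693, the Psmd1 probe at 2628 and the Psmb4 probe at 154 span more genome than their 60 bases and so cross an intron, while the others lie in a single exon. The motif AATAAA, on the probe strand, was in 8 of the 34 probes that represent a gene (23.5%), in 2 of the 31 others (6.45%) and in 9.77% of all probes on the array, so the representing probes hold it more often by count than the others.

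Over the 11 proteasome transcripts with tested probes at least 200 bases apart, the probe nearest the 3′ end had the higher log2 fold change in 8, by a median of 0.16. Over all 4276 such transcripts on the array it was higher in 71.1%, by a median of 0.13, so the proteasome genes were close to the background in this setting. In others the medians lay further apart: 0.163 for the proteasome transcripts against 0.0888 for all with normexp. They were 0.156 against 0.0908 with 75th percentile scaling and 0.152 against 0.0902 with the median spot signal. Psmd3 (by 0.38), Psmd13 (0.29) and Psmc3 (0.28) had the largest differences and Psmb4 went furthest the other way (-0.21). On the individual arrays, the median difference between the 3′ and the 5′ probe over all 4276, relative to its mean over arrays, ran from -0.08 to -0.04 in Co mice but from 0.03 to 0.10 in Pg mice (two-sided exact permutation p = 0.0286, again the lowest attainable). Brightness moved with it. The 3′ probe was the brighter in all 11 proteasome pairs and in 3713 of the 4276, and in the 563 pairs whose 5′ probe was the brighter, the 3′ probe had the higher fold change in only 41.4%. The part of probe position and of brightness in the fold changes of single probes was not tested.

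**Figure D5:**
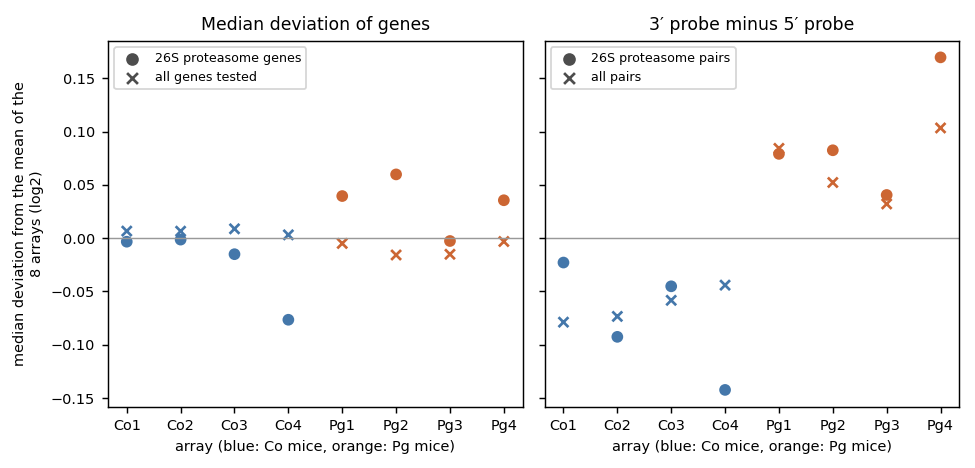
Left, the median deviation of the 34 proteasome genes (circles) and of all genes tested (crosses) on each array from its mean over the 8 arrays; right, the same for the difference between the 3′ and the 5′ probe of a transcript, over 11 proteasome pairs and all 4276 pairs. On the left Pg3 falls among the Co arrays, and on the right all Pg arrays are above 0 and all Co arrays below it.

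In an immune response the cutting subunits of newly built particles are replaced: Psmb8 takes the place of Psmb5, Psmb9 that of Psmb6 and Psmb10 that of Psmb7. None of the 4 measured genes of this inducible set, which includes the cap gene Psme1, passed the test. Psmb10 was nearest, at 12.17, 12.22, 12.27 and 12.32 in the Co mice and 12.49, 12.53, 12.35 and 12.48 in the Pg mice, without overlap (log2 fold change 0.21, adjusted p = 0.109). It was under the threshold after normexp background correction (adjusted p = 0.0873), with the median spot signal and no background subtraction (0.0899), with the filter on all 8 arrays (0.0904) and without the third Pg mouse (0.0911), and over it in the rest, up to 0.279 without normalization between arrays. Psmb9 stood at 0.49 (adjusted p = 0.238) and Psmb8 at 0.40 (adjusted p = 0.199), each with overlapping groups, and Psme1 at -0.06. The change of each inducible subunit relative to the constitutive one it replaces was then compared on each array, a comparison of 3 pairs chosen after their fold changes were known. The difference was larger in Pg than in Co mice by 0.30 for Psmb10 over Psmb7 (SD 0.0349 in Co and 0.171 in Pg mice, n = 4 each, no overlap, exact two-sided permutation p = 0.0286, the lowest attainable, adjusted p = 0.0857 over the 3). For Psmb9 over Psmb6 it was 0.42 (exact permutation p = 0.114, adjusted 0.171) and for Psmb8 over Psmb5 0.29 (exact permutation p = 0.257, adjusted 0.257), both with overlap. The values for Psmb10 over Psmb7 on the arrays were -0.15, -0.19, -0.15 and -0.11 in Co mice and 0.32, 0.25, -0.05 and 0.08 in Pg mice, relative to their common mean.

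Dedicated chaperones build the 20S core. All 5 measured were higher in Pg mice, 1 of them past the test (2.05% of all genes), and the groups did not overlap for 3 (5.76% of all genes). Psmg2, which pairs with Psmg1 to start the α ring, rose from 11.35, 11.39, 11.42 and 11.42 in Co mice to 11.58, 11.56, 11.58 and 11.54 in Pg mice (log2 fold change 0.17, adjusted p = 0.0977). Pomp, the maturation factor of the β ring, stood at 0.19 (adjusted p = 0.154) and Psmg1 at 0.16 (adjusted p = 0.159), both without overlap. The call of Psmg2 was lost when the array was scaled to the 75th percentile (adjusted p = 0.185) or not normalized (0.310), without the signal filter (0.106), with the mean over its probes (0.394) and whenever any of the 8 mice was left out.

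Of 7 regulators of proteasome genes, 6 were higher and 1 lower in Pg mice (52.8% of all genes were lower), and 1 passed the test as higher (2.05% of all genes). Nfe2l3, a close relative of Nfe2l1, rose from 7.16, 6.96, 6.90 and 7.08 in Co mice to 7.20, 7.53, 7.47 and 7.44 in Pg mice (log2 fold change 0.39, adjusted p = 0.0756 by limma), the first Pg mouse standing only just above the first Co mouse. The call held without Pg1 and was lost without any other mouse, without normalization between arrays (adjusted p = 0.157), without the signal filter (0.117) and with the mean over its probes (0.287). Nfe2l1 itself, the factor that induces proteasome genes when the proteasome falls short, measured 15.91, 15.92, 16.07 and 15.98 in Co mice and 16.17, 16.16, 16.09 and 16.20 in Pg mice. The groups stood apart, but the gene missed the threshold (log2 fold change 0.19, adjusted p = 0.120). Nfe2l2, the oxidative stress factor, stood at 0.08 (adjusted p = 0.556).

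These factors bind an element that can be written TGACNNNGC. It was looked for on both strands in the 250 bases before the RefSeq start of the 28 genes of the 34 with an entry (build GRCm38.p6), and was in 5 of them (17.9%), against 10.1% of 27025 promoters. The matches, in capitals, are shown for Psmb5 and Psmb6 because those encode active sites, 5′ to 3′ on the strand of the gene.
Psmb5, chr14:54618018-54618058, - strand: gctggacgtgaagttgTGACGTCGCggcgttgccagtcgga
Psmb6, chr11:70525316-70525356, + strand: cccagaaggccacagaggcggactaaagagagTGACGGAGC
The other 3 were Psmc6, Psmd12 and Psmd9. The motif CCAAT was in 11 of the 28 (39.3%, against 34.5% of all), and the GC-rich palindromic site of nuclear respiratory factor 1 in 6 (21.4%, against 3.86%), which were Psma2, Psma3, Psma4, Psmc4, Psmc5 and Psmd14. TGAGTCA was in 1 of the 28 (3.57%, against 4.43%). The letters TGACNNNGC and TGAGTCA can overlap, and a match is a description of the sequence only.

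In the remaining lists of the pathway 1 gene passed the test, as lower, against 4.18% of all genes. Ubqln4, a shuttle that brings ubiquitin-tagged proteins to the proteasome, fell from 10.11, 10.16, 10.14 and 10.18 in Co mice to 9.86, 9.81, 9.89 and 9.87 in Pg mice (log2 fold change -0.29, adjusted p = 0.0469), with all Pg values below all Co values. Its call was lost without Co2 (adjusted p = 0.115) or Co3 (0.113), and it was also lost without normalization between arrays (0.196), with the mean over its probes (0.328) and with the deposited log2 values (0.401). Of the 10 tested shuttle and extraction genes in its list, 7 were higher and 3 lower. The 10 measured genes for other caps and bound proteins had a median of 0.01, with none past the test, and the lowest p was that of Psme4, an alternative cap (0.12, adjusted p = 0.203). Of 5 ubiquitin and activating enzyme genes, 2 were higher and 3 lower, none past the test (adjusted p from 0.292 to 0.870). Of the tissue-specific subunits Psma8 and Psmb11 neither was well above background on enough arrays to be tested.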

How the data were processed

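The authors hybridised Cy3-labelled cRNA of 8 mice to Agilent SurePrint G3 arrays, and the deposited scanner files hold spot intensities from Feature Extraction 11.0.1.1 (per the file headers). A deposited table of the series holds the authors' quantile-normalized log2 values per transcript accession. It served as an alternative, and its columns of the authors' own comparison were not used. Here the processed signal, already background-subtracted, was averaged over spots of a probe without population outliers (59305 spots, 56605 probes), quantile normalized, floored at 1 and log2-transformed. Probes flagged well above background on 4 or more arrays (33819) entered limma 3.58.1 (R 4.3.3), Pg against Co mice, 4 arrays each, and p-values were adjusted over all of them (Benjamini-Hochberg). Calls are at q under 0.1, and a differentially expressed gene also needs a 1.5-fold change, as in the study. Precision is limited by the number of arrays. The fit was tested on simulated data. Genes given with values on every array are Psmb5 to Psmb7, the 3 lowest p-values of each part of the particle and called genes. The gene with the lowest p of the neighbouring lists is named; a few others were added after their values were seen. A gene of the ubiquitin list is not reported here, and no gene of that list is given by name. The members and lists were chosen with earlier results of these data known. Alternatives were other background corrections (normexp, offset 50), scalings, filters, probe choices, a replicate block and leaving out each array. The choice of the 5′-most probe was added after seeing the data.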

Additional observations from a re-analysis of the deposited data

Results flagged for a closer look

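Within a group of 4, a single mouse stood far from the other 3 in 7 of the 68 groups looked at (34 genes, 2 groups each), or 10.3 per 100, where chance gives about 1 in 20. In Co mice, Psma4 was 14.76 on Co4 against 14.91 to 14.93 on the others, Psma6 was 14.69 on Co1 against 14.62 to 14.62, Psmb7 was 14.24 on Co1 against 14.33 to 14.35, Psmd8 was 13.51 on Co2 against 13.39 to 13.40, and Psmd5 was 11.11 on Co2 against 10.91 to 10.91. In Pg mice, Psmc1 was 15.61 on Pg2 against 15.50 to 15.50, and Psmd8 was 13.20 on Pg3 against 13.44 to 13.46. The deviations were both upward (4) and downward (3).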

How the results depend on the processing

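No setting made any of the 34 genes a differentially expressed gene, and those called at q under 0.1 changed with the setting. With normexp 1 was called higher, and the groups of 2 were apart with lower Pg values; Psmc5 (-0.00776), Psmd2 (0.00546) and Psmd12 (-0.00129) changed sign. With the median signal 2 were called higher, and Psmc5 (-0.0248), Psmd2 (0.0106), Psmd7 (-0.00413) and Psmd14 (0.00258) changed sign. With 75th percentile scaling 0 had groups apart with higher Pg values, 15 were below 0, the median was 0.0120, and Psmb1 (-0.0123), Psmb4 (-0.000172), Psmc5 (-0.00797), Psmd3 (-0.0155), Psmd7 (-0.0172) and Psmd12 (-5.59e-05) changed sign. Without normalization between arrays 1 had groups apart with higher Pg values, and Psmd14 (0.00958) changed sign. The filter on all 8 arrays gave 1 called higher. With the mean over all tested probes of a gene, Psmd2 (0.00350), Psmd3 (-0.153), Psmd6 (-0.00886), Psmd13 (-0.0525) and Psme4 (-0.0639) changed sign. With the 5′-most probe of the transcript, a choice made after seeing the data, 2 were called higher and 1 lower, 3 had groups apart with lower Pg values, 14 were below 0, and Psma6 (-0.0315), Psmc3 (-0.135), Psmd1 (-0.154), Psmd2 (0.0207), Psmd3 (-0.345), Psmd6 (-0.0840) and Psmd13 (-0.200) changed sign. With the deposited log2 values (how probes were combined is not given in the sources used here), 1 was called higher, 16 were below 0, the median was 0.00996, and Psma4 (-0.0248), Psmc3 (-5.67e-05), Psmc5 (-0.0332), Psmd3 (-0.125), Psmd6 (-0.0195), Psmd7 (-0.0116), Psmd13 (-0.0966) and Psme4 (-0.0232) changed sign. Apart from the probe choices, whose construction replaces the probe, the cause was not tested.

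Leaving out each mouse in turn gave 0 to 1 genes called higher, 4 to 8 with groups apart and higher in Pg mice and 0 to 2 lower (2 without Co4, 1 without Co1, Pg1 or Pg3), 6 to 10 below 0 and a median of 0.0475 to 0.0709. The sign changed for Psmc4 (-0.0715 to 0.0146), Psmd2 (-0.0424 to 0.0121), Psmd3 (-0.00756 to 0.0768), Psmd7 (-0.0247 to 0.0392), Psmd8 (-0.0624 to 0.0255), Psmd11 (-0.0975 to 0.0125) and Psmd14 (-0.0280 to 0.0231). Over the whole array 2644 probes were called (616 higher, 2028 lower), against 1546 with 75th percentile scaling, 1269 without the signal filter and 29 without normalization between arrays, where the split turned (20 higher, 9 lower). On leaving out a mouse the calls fell to between 3 (without Co3) and 2378 (without Pg3). The replicate numbers are a pairing by number only. Correlations between whole arrays ran from 0.986 to 0.994. A separate measure, used to check the pairing, gave 0.0589, -0.0270, -0.0684 and 0.178 for same-numbered mice, and so is not a correlation of whole arrays. A fit with the replicate number as a block left 0 of all probes called, 0 of the 34 genes called and a median of 0.0554. Under it Psmg2, Nfe2l3 and Ubqln4 also missed the threshold (adjusted p = 0.183, 0.173 and 0.125). By the pairing measure, only the first and the fourth mice matched best with their own number.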
